A study of Mus musculus with 44 samples.

Results

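A set of 10 genes of antigen presentation were followed in sorted mammary fibroblasts. H2-K1, H2-D1, B2m, Tap1, Tap2, Psmb8, Psmb9 and Nlrc5 belong to the MHC class I route, and H2-Aa and Cd74 to the MHC class II route. They were picked by symbol out of a table of 55486 genes, in which each of the 10 genes was found once, and all 10 had enough counts to be tested. Values are CPM, the counts of a gene scaled by the total of its library or sum, in each mouse and CD26 class. Ptprc, which encodes the pan-leukocyte surface protein CD45, was read beside them, because leukocytes had been sorted away by that protein.

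The fibroblasts came from female En1-Cre;mTmG mice, whose cells carry red membrane fluorescence until Cre under the En1 promoter switches them to GFP. The mTmG line was on an FVB/n background and En1-Cre had been crossed to it for only 2 generations, so that other strain background may remain in the recipients. All recipients had received fragments of mammary tissue from FVB/n donors, and their own glands were left in place. Control donor tissue gave normal fibroblasts (NFs, 3 mice), which the labels call wildtype. The study names WapCre-negative Cdh1F/F;PtenF/F mice as donors of control tissue, and the labels do not say whether these controls had such donors. Cancer-associated fibroblasts (CAFs) came from 2 donor genotypes. These were WapCre;Brca1F/F;Trp53F/F (WB1P, 5 mice) and the same alleles with Col1a1invCAG-Myc-IRES-Luc (WB1P-Myc, 5 mice). Wap-Cre acts in donor mammary epithelium, so that host fibroblasts would not themselves be Brca1- or Trp53-deleted. The study found some donor-derived tumor cells without epithelial markers in its transplant tumors. Whether every sorted cell was of the host was not tested here. Tumors are called end-stage in the series description, and the labels mark WB1P-Myc mice 23 and 69 as 8x8, a tumor dimension in mm in the study. EpCAM-, CD49f-, CD31- and CD45- cells were split by CD26 (encoded by Dpp4) and by GFP into 4 populations. The 44 libraries were added up per mouse and CD26 class into 25 sums, 13 CD26- and 12 CD26+ (WB1P mouse 10 gave no CD26+ library). Most sums, and all control sums, hold an En1+ (GFP+) and an En1- (GFP-) library. The CD26- sums of mice 21 and 95 hold only the En1- library, and that of mouse 10 only the En1+ one. The CD26+ sums of mice 12, 67 and 95 hold only the En1+ library. The part of this make-up in the values was not tested in the sums. Mice are named by their label numbers, and whether a control label with a pair of numbers is 1 animal or a pool is not stated, so each was counted as 1 mouse.

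Libraries held between 5790599 and 15240328 counts, and no pair of libraries in a group agreed within sampling noise. Fibroblast markers stood at 33209 to 83649 CPM summed over 6 genes in every sum, and Dpp4 was at 223 to 846 CPM in CD26+ sums and 0.619 to 17.6 CPM in CD26- sums. A list of 6 general leukocyte genes summed to 3.00 to 6.33 CPM in NFs of the CD26- class, 4.99 to 39.7 CPM in CD26- WB1P CAFs and 3.02 to 53.7 CPM in CD26- WB1P-Myc CAFs. A list of 5 pericyte genes summed to at most 390 CPM in NFs of the CD26- class, 1553 to 4512 CPM in CD26- WB1P CAFs and 2264 to 9284 CPM in CD26- WB1P-Myc CAFs, against 136 to 304 CPM in all CD26+ sums. Of the 3 T cell genes only Cd3e was counted in number, at up to 206 CPM, while Cd3d stayed at or under 0.161 CPM and Cd3g at or under 0.364 CPM. In bulk samples fewer cells of a type and less RNA per cell cannot be told apart.

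MHC class I molecules show peptides from inside the cell to CD8 T cells and are made by nearly all nucleated cells. The heavy chains H2-K1 and H2-D1 pair with the light chain B2m. Peptides are cut by the proteasome, in which interferon-inducible subunits such as Psmb8 and Psmb9 can replace the constitutive ones, and are carried into the endoplasmic reticulum by the Tap1 and Tap2 transporter. Nlrc5 is the transactivator of class I genes. MHC class II molecules, here the alpha chain H2-Aa, show peptides taken up from outside to CD4 T cells and travel with the invariant chain Cd74. They are made mainly by dendritic cells, B cells and macrophages, and other cells, fibroblasts among them, can make them under interferon gamma.

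Promoter windows are shown because the class I genes moved together from mouse to mouse, while in CD26- CAFs the class II genes moved with Ptprc. Each window is the RefSeq sequence (GRCm38.p6) from 250 bases before to 50 bases after a gene's start, read in the direction of the gene. Windows were found for 7 of the 10 genes, and those of H2-K1, H2-D1, B2m, H2-Aa and Tap1 follow, with the searched motifs in capitals.
H2-K1, chr17:34000298-34000597, minus strand: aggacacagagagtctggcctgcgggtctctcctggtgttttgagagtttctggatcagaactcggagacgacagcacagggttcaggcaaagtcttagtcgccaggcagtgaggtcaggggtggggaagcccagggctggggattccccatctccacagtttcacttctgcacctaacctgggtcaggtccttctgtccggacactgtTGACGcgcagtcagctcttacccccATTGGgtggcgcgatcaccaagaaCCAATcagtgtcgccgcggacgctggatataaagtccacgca
H2-D1, chr17:35262844-35263143, plus strand: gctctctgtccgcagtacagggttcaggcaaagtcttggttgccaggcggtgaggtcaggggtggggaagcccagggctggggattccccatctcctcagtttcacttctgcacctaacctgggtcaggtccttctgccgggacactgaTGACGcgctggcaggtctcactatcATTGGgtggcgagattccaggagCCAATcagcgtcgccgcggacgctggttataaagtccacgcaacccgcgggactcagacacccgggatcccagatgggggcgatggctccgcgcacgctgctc
B2m, chr2:122147437-122147736, plus strand: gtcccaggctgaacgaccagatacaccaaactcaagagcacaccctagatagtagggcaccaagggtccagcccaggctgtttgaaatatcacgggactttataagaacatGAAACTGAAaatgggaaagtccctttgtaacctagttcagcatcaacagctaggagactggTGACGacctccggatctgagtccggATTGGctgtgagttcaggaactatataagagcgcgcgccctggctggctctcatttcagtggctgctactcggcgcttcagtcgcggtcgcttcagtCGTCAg
H2-Aa, chr17:34287774-34288073, minus strand: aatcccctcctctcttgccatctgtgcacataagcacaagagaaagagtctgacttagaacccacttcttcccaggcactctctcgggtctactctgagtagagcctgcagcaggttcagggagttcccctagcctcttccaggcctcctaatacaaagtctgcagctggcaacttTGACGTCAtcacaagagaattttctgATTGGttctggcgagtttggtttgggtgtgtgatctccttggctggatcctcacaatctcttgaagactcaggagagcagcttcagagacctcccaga
Tap1, chr17:34187306-34187605, plus strand: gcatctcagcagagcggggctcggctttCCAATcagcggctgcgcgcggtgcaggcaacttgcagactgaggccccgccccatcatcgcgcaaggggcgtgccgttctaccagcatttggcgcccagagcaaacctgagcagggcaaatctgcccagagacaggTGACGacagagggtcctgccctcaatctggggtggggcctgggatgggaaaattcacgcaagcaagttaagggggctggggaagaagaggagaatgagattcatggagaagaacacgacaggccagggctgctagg

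The capitals mark, on either strand, TGACG (the core of the X2 box), ATTGG (the core of the Y box), GAAANNGAA (one form of the core of an interferon-response element) and TTCNNNGAA (a gamma-activated site). TGACG stood in 20.8% of all 32851 promoter windows of that length, ATTGG in 37.4%, GAAANNGAA in 8.56% and TTCNNNGAA in 8.30%. Among the 7 members with a window, GAAANNGAA stood in that of B2m alone and TTCNNNGAA in that of Psmb8 alone. Other forms of an interferon-response element were not searched for, so a window without capitals for it may still hold one. The H2-K1 and H2-D1 windows both hold cagtttcacttctgcacc, which the searched form does not match. Whether this stretch is such an element was not tested. In H2-K1, H2-D1, B2m and H2-Aa, ATTGG began 25 or 26 bases after TGACG. Counted from 0 at the first base of the gene, TGACG began at position -41 in H2-K1 (-55 from the other start that the table lists for this gene), -101 in H2-D1, -78 in B2m and -74 in H2-Aa. A pair of these letters at those distances, which were set after the members had been read, stood in 54 of the 32851 windows (0.164%). Tap1, Psmb8, Psmb9 and Ptprc had no such pair in their windows. Tap1 and Psmb9 are read in opposite directions from the same stretch, and the Psmb9 window (chr17:34187281-34187580, minus strand) nearly coincides with that of Tap1. A match is a description of letters and not of a bound site.

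Reads of some members could be shared with other genes. Among windows of 54 bases, the length of a read, 8.06% of those in H2-K1 transcripts and 10.5% of those in H2-D1 transcripts also occur in another gene of GENCODE M21, the class I genes H2-Q10, H2-Q7 and H2-Q1 among them. Tap1 and Psmb9 overlap at their 5′ ends (3.18% and 4.06% of windows), Psmb8 shares 11.4% of windows and Tap2 11.1% with overlapping gene models, and B2m and Cd74 share none. The libraries were stranded, but whether the counting used strand is not given in the sources used here, and neither are the H2 alleles of these mice.

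Per kilobase of annotated exon, the light chain had the highest level of the members. The lengths used were 860 bases for B2m, 1679 for Cd74, 3381 for Psmb8, 3660 for Psmb9, 3798 for H2-Aa and 18313 for Ptprc. How long the transcripts in these cells were was not tested. The order below the class I chains, and the level of Ptprc, therefore rest on these lengths. In CD26- NFs the median was 375 CPM per kilobase of exon for B2m, 179 for H2-D1 and 67.9 for H2-K1. Tap2 followed with 15.1, Cd74 with 6.34, Tap1 with 5.45, Psmb8 with 5.01, H2-Aa with 1.55, Psmb9 with 1.30 and Nlrc5 with 0.596 CPM per kilobase. In CD26- WB1P-Myc CAFs B2m (810), H2-D1 (338) and H2-K1 (133) again led by the median CPM per kilobase, and Cd74 (26.4) stood above Tap2 (21.2). Ranges of Cd74, Tap1 and Psmb8 overlapped in the NFs (2.16 to 7.64, 5.02 to 14.9 and 4.67 to 13.1 CPM per kilobase), so that these neighbours in the order did not differ beyond their spread. Ptprc stood at 0.0409 to 0.0979 CPM per kilobase in the same NFs.

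**Figure D1:**
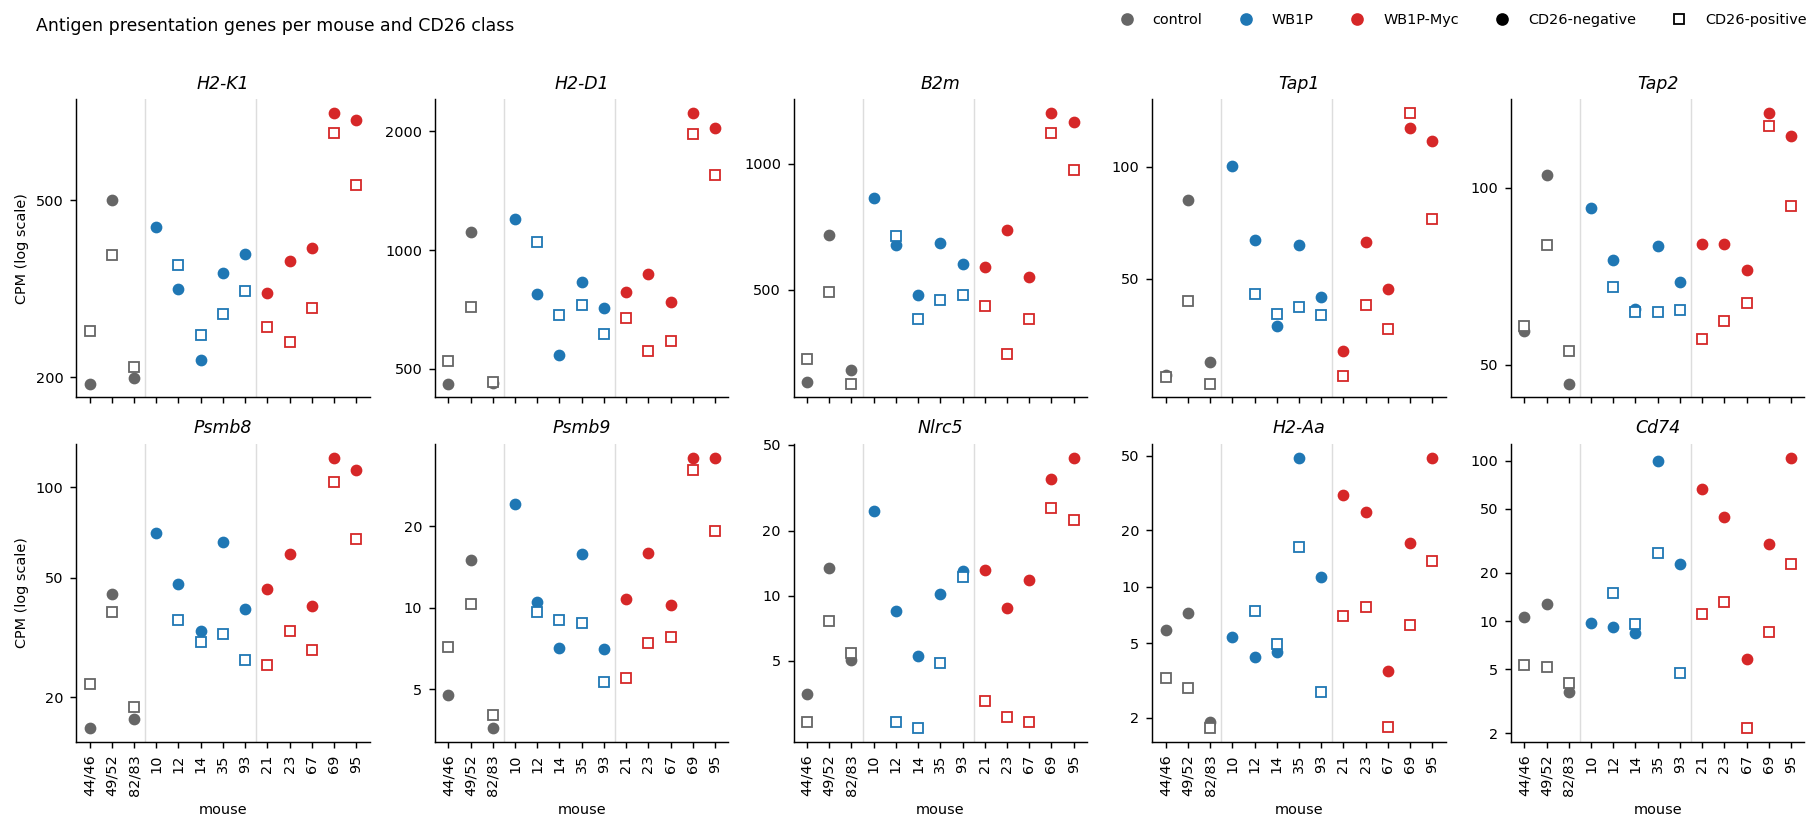
CPM (log scale) of the 10 genes in each mouse, grey for control, blue for WB1P and red for WB1P-Myc, with filled circles for CD26- and open squares for CD26+ fibroblasts. In the 8 class I panels WB1P-Myc mice 69 and 95 and control mouse 49/52 stand high within their groups in both classes (B2m 1323, 1259 and 675 CPM in CD26- fibroblasts), and in the H2-Aa and Cd74 panels mouse 35 is the highest of WB1P and mouse 95 the highest of WB1P-Myc in both classes.

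The class I chains were compared first between CD26- CAFs and CD26- NFs. B2m stood at 302, 323 and 675 CPM in CD26- NFs of control mice 44/46, 82/83 and 49/52. It stood at 538 to 1323 CPM in CD26- WB1P-Myc CAFs, with 538, 568, 696, 1259 and 1323 CPM in mice 67, 21, 23, 95 and 69. All 5 mice lay above the 2 lower controls, and 2 of them lay below control 49/52. B2m rose by 1.00 ± 0.39 on the log2 scale in WB1P-Myc (SE, FDR 0.047, the p of edgeR's quasi-likelihood test after Benjamini-Hochberg adjustment for 16601 genes). In CD26- WB1P CAFs it was at 487 to 827 CPM, a log2 fold change of 0.68 ± 0.38 (FDR 0.168).

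The heavy chains did not pass the threshold in that class. H2-D1 was at 459, 461 and 1108 CPM in the NFs and at 740, 784, 872, 2037 and 2225 CPM in WB1P-Myc CAFs of mice 67, 21, 23, 95 and 69. Mice 69 and 95 lay above every control and the other 3 between the controls. The log2 fold change was 0.96 ± 0.45 (FDR 0.0959) in WB1P-Myc and 0.39 ± 0.44 (FDR 0.510) in WB1P, whose 5 mice spanned 542 to 1195 CPM. H2-K1 was at 194 to 500.05 CPM in NFs, 219 to 435 CPM in WB1P and 310 to 786 CPM in WB1P-Myc CAFs, with log2 fold changes of 0.33 ± 0.39 (FDR 0.539) and 0.79 ± 0.39 (FDR 0.117).

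Of the genes that supply peptide, Psmb8 had the clearest difference. This immunoproteasome subunit was at 15.8, 16.9 and 44.3 CPM in CD26- NFs and at 40.3, 45.8, 60.1, 115 and 126 CPM in CD26- WB1P-Myc CAFs of mice 67, 21, 23, 95 and 69. Only mouse 67 lay below the highest control. Psmb8 rose by 1.57 ± 0.47 on the log2 scale (FDR 0.0123). In CD26- WB1P CAFs (33.2 to 70.7 CPM, 3 of 5 mice above every control) the log2 fold change was 1.12 ± 0.46 (FDR 0.0604).

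Psmb9, the other immunoproteasome subunit, was at 3.60 to 15.0 CPM in NFs of the CD26- class, 7.05 to 24.1 CPM in WB1P and 10.2 to 35.8 CPM in WB1P-Myc CAFs. Its log2 fold change was 0.85 ± 0.58 (FDR 0.269) in WB1P and 1.46 ± 0.60 (FDR 0.0590) in WB1P-Myc. The transporter subunits differed least, Tap1 by 0.72 ± 0.49 (FDR 0.253) and Tap2 by 0.48 ± 0.27 (FDR 0.164) on the log2 scale in WB1P-Myc. Nlrc5, with 3.51 to 13.4 CPM in NFs and 8.74 to 43.6 CPM in WB1P-Myc CAFs, had a log2 fold change of 1.57 with an SE of 0.82 (FDR 0.136).

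Class II genes had the largest fold changes. Cd74 was at 3.63, 10.6 and 12.8 CPM in CD26- NFs of mice 82/83, 44/46 and 49/52, and at 5.77, 30.2, 44.4, 67.0 and 105 CPM in CD26- WB1P-Myc CAFs of mice 67, 69, 23, 21 and 95. Mouse 67 lay among the controls and the other 4 above all of them. The CD26- sums of mice 21 and 95 hold only the En1- library, unlike the control sums. The part of this in the class II values was not tested. Cd74 rose by 2.44 ± 0.89 on the log2 scale (FDR 0.0357). H2-Aa, at 1.91 to 7.27 CPM in the NFs and 3.57 to 48.7 CPM in the WB1P-Myc CAFs, rose by 2.28 ± 0.85 (FDR 0.0386).

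In CD26- WB1P CAFs the class II genes were high in mouse 35. Cd74 was at 8.38, 9.22, 9.67, 22.6 and 100.2 CPM in mice 14, 12, 10, 93 and 35. The log2 fold change of 1.84 ± 0.86 missed the threshold (FDR 0.0998), and so did that of H2-Aa, 1.68 ± 0.82 (FDR 0.116). Mice 14, 12 and 10 lay within the range of the controls.

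In all, 4 of the 10 genes (B2m, Psmb8, H2-Aa and Cd74) rose in CD26- WB1P-Myc CAFs against CD26- NFs and none fell. Of all 16601 genes, 19.1% rose and 36.6% changed in either direction, so that 4 of 10 is to be read against a high background. The median log2 fold change of the 10 genes was 1.23, against 0.02 over all genes. The calls did not hold under several alternatives. None of the 10 passed without control mouse 44/46, without control mouse 82/83, or with the Ptprc level as a covariate. With that covariate the log2 fold change was 1.02 ± 0.41 for Psmb8 (FDR 0.0636) and 0.96 ± 0.51 for Cd74 (FDR 0.158). Without the 3 mice with over 5 CPM of Ptprc in CD26- fibroblasts, H2-Aa and Cd74 passed and B2m and Psmb8 did not. Psmb8 alone passed without WB1P-Myc mouse 95, and B2m and Psmb8 without mouse 23. Without control mouse 49/52, 6 genes passed, but H2-Aa and Cd74 did not, and neither did they without WB1P-Myc mouse 21. The B2m call, close to the threshold, was also lost without WB1P mouse 12, 14, 35 or 93 and without WB1P-Myc mouse 69.

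In CD26- WB1P CAFs none of the 10 genes passed by edgeR, against 35.4% of all genes in either direction. At an unadjusted p under 0.05 there were 2 genes, and 2 passed (Psmb8 and Cd74) by the Wald test of DESeq2. All 10 had log2 fold changes above 0, with a median of 0.77 against 0.00 over all genes. Psmb8 passed without control mouse 49/52 and without WB1P-Myc mouse 69, which only adds to the shared spread. Both CAF comparisons use the same 3 control mice, so that their directions are not independent of each other.

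**Figure D2:**
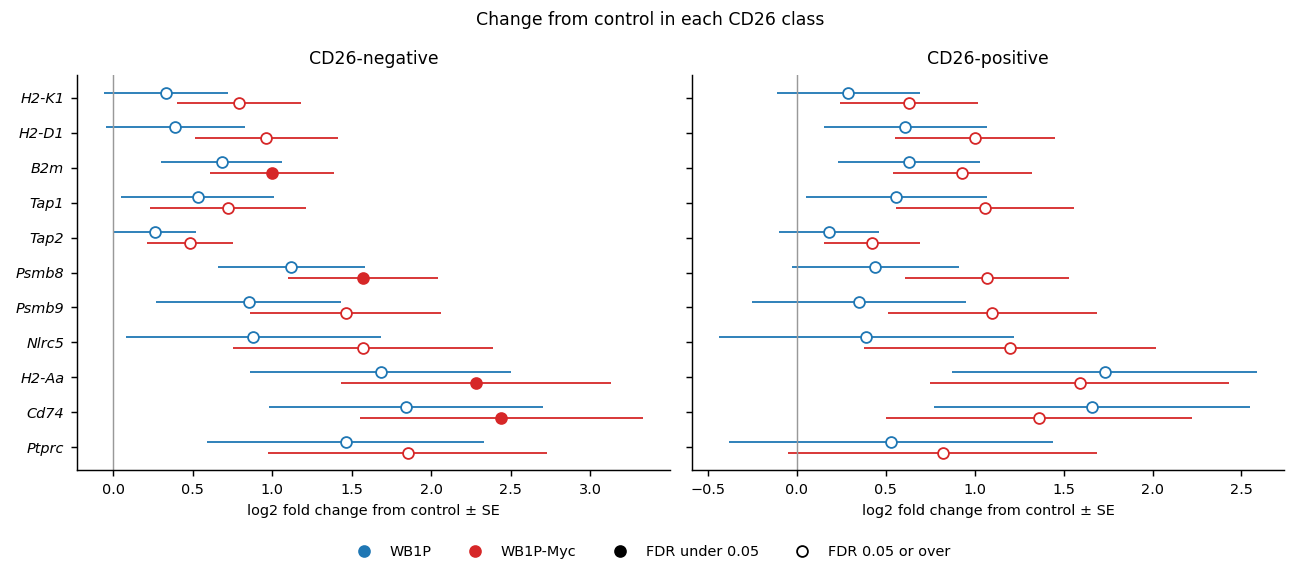
Log2 fold change from control with its SE for the 10 genes and Ptprc, in CD26- fibroblasts on the left and CD26+ fibroblasts on the right, blue for WB1P and red for WB1P-Myc, filled where the FDR is under 0.05. All points lie above 0, from 0.18 (Tap2, WB1P, CD26+) to 2.44 (Cd74, WB1P-Myc, CD26-), and the 4 filled points are all in the CD26- panel for WB1P-Myc.

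CD26+ CAFs were set against CD26+ NFs in the same way. B2m was at 299, 343 and 494 CPM in the NFs and at 352, 426, 457, 968 and 1184 CPM in WB1P-Myc CAFs of mice 23, 67, 21, 95 and 69, a log2 fold change of 0.93 ± 0.39 (FDR 0.0642). Again mice 69 and 95 lay above every control and the other 3 did not. H2-D1 (1.00 ± 0.45, FDR 0.0847), Tap1 (1.06 ± 0.50, FDR 0.0977) and Psmb8 (1.07 ± 0.46, FDR 0.0737) had log2 fold changes of like size. In WB1P these were 0.61 ± 0.46, 0.56 ± 0.51 and 0.44 ± 0.47.

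Cd74 was at 4.11, 5.16 and 5.36 CPM in CD26+ NFs. It reached 4.74, 9.57, 15.0 and 26.5 CPM in CD26+ WB1P CAFs of mice 93, 14, 12 and 35, a log2 fold change of 1.66 ± 0.89 (FDR 0.154), and 2.15 to 22.8 CPM in CD26+ WB1P-Myc CAFs, 1.36 ± 0.86 (FDR 0.223). H2-Aa differed by 1.73 ± 0.86 (FDR 0.125) in WB1P and 1.59 ± 0.84 (FDR 0.142) in WB1P-Myc. With Ptprc as a covariate H2-Aa passed in both (FDR 0.0409 and 0.0456).

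None of the 10 genes passed in CD26+ CAFs by edgeR, in WB1P against 33.5% of all genes and in WB1P-Myc against 34.7%. At an unadjusted p under 0.05 there were 0 and 4 genes, and by DESeq2 0 and 1 (B2m). The medians of the 10 genes were 0.50 and 1.07 on the log2 scale, against 0.00 and -0.01 over all genes. In WB1P-Myc 1 or 2 genes passed when control mouse 49/52 or WB1P-Myc mouse 21, 23 or 67 was left out.

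The CAFs of the 2 tumor models were then compared with each other. None of the 10 genes passed in CD26- fibroblasts, where 0.512% of all genes did, or in CD26+ fibroblasts, where 0% did. This was so at an unadjusted p under 0.05 (0 genes in each class) and by DESeq2 (0 genes in each class). In CD26- fibroblasts the log2 fold changes of WB1P-Myc over WB1P ran from 0.18 ± 0.41 for Tap1 to 0.69 ± 0.67 for Nlrc5, and in CD26+ fibroblasts from -0.31 ± 0.74 for Cd74 to 0.81 ± 0.73 for Nlrc5. The SEs leave differences of that size undecided.

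CD26+ and CD26- fibroblasts of the same group were compared without and with pairing by mouse. Without pairing none of the 10 genes passed, against 4.17% of all genes in controls, 26% in WB1P and 20% in WB1P-Myc. At an unadjusted p under 0.05 there were 0, 0 and 2 genes, and by DESeq2 0, 0 and 1 (Cd74). Cd74 had the largest difference in WB1P-Myc, -1.89 ± 0.72 on the log2 scale (FDR 0.0663), beside -1.50 ± 0.73 for Ptprc.

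Paired by mouse, 5 of the 10 genes were lower in CD26+ than in CD26- WB1P-Myc CAFs, where 17.0% of all genes were lower. Cd74 fell by 1.81 on the log2 scale (SE 0.35, FDR 0.00143) and H2-Aa by 1.48 (SE 0.31, FDR 0.00236). Nlrc5 fell by 1.21 (SE 0.27, FDR 0.00397), Psmb9 by 0.52 (SE 0.18, FDR 0.0436) and Psmb8 by 0.47 (SE 0.12, FDR 0.0107). All 5 of these genes were lower in 5 of 5 mice. Ptprc fell in the same comparison by 1.54 (SE 0.34, FDR 0.00395), and with the Ptprc level as a covariate, without pairing, the log2 differences were 0.04 ± 0.35 for Psmb8, 0.09 ± 0.46 for Psmb9, -0.31 ± 0.66 for Nlrc5, -0.09 ± 0.42 for H2-Aa and -0.31 ± 0.46 for Cd74. All 5 pericyte genes were also lower in CD26+ WB1P-Myc CAFs in the unpaired fit, by a median of -3.21 on the log2 scale, and the part of pericyte RNA in the members' differences was not tested. Without the 3 mice with over 5 CPM of Ptprc in CD26- fibroblasts, Psmb8, Nlrc5, H2-Aa and Cd74 still passed and Psmb9 did not.

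The class I chains and the transporter did not pass in that comparison. H2-K1 (-0.22 ± 0.13), H2-D1 (-0.18 ± 0.14), B2m (-0.26 ± 0.14), Tap1 (-0.17 ± 0.15) and Tap2 (-0.15 ± 0.09) had log2 differences below 0 without passing, and they were lower in 5 of 5 mice, or in 4 of 5 for Tap1. In WB1P, paired by mouse, Psmb8 fell by 0.42 (SE 0.14, FDR 0.0324) in 4 of 4 mice, the only one of the 10 genes to pass, where 17.9% of all genes were lower. In controls none of the 10 passed with pairing either, with 0 at an unadjusted p under 0.05.

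The change from control was also compared between the classes. No member differed between CD26+ and CD26- fibroblasts in its change from control, in WB1P (1.86% of all genes passed) or in WB1P-Myc (1.16%), with 0 genes below 0.05 before adjustment and 0 by DESeq2 in both. The differences ran from -0.69 (Psmb8) to 0.22 (H2-D1) in WB1P and from -1.08 (Cd74) to 0.35 (Tap1) in WB1P-Myc on the log2 scale. With pairing by mouse 1 gene in each was under an unadjusted p of 0.05 and none passed.

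The levels of a member in the 2 classes of a mouse were related. In 12 mice with both classes, the CD26- and CD26+ levels of each member correlated on the log2(CPM + 0.5) scale, a relation looked at after the values had been seen. For Tap1 Pearson's r was 0.90 (permutation p 1e-05, the smallest that 100000 permutations can give, adjusted 0.0001 over the 10 genes) and Spearman's rho was 0.96 (permutation p 1e-05). For B2m r was 0.89 (permutation p 0.00026, adjusted 0.00052) and rho 0.76 (p 0.00516, adjusted 0.0103), and for Nlrc5 r was 0.81 (permutation p 0.00161, adjusted 0.00183) and rho 0.70 (p 0.0145, adjusted 0.0161). Over all 10 genes r ran from 0.76 (Cd74) to 0.90, and with the mean of each treatment subtracted from 0.77 to 0.90. Ptprc gave r = 0.76 as well. The values of all genes, less the mean of each group, also correlated between CD26- and CD26+ sums in each of the 12 mice (r from 0.237 to 0.668 across genes). That r runs across genes within a mouse and is another measure than r over mice. The r over mice was not computed for all genes, so whether the members stand out was not tested. Without the 2 mice farthest from the median, r was lowest for Nlrc5 (0.43) and H2-D1 (0.51) and highest for Tap1 and Psmb8 (0.88 each).

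**Figure D3:**
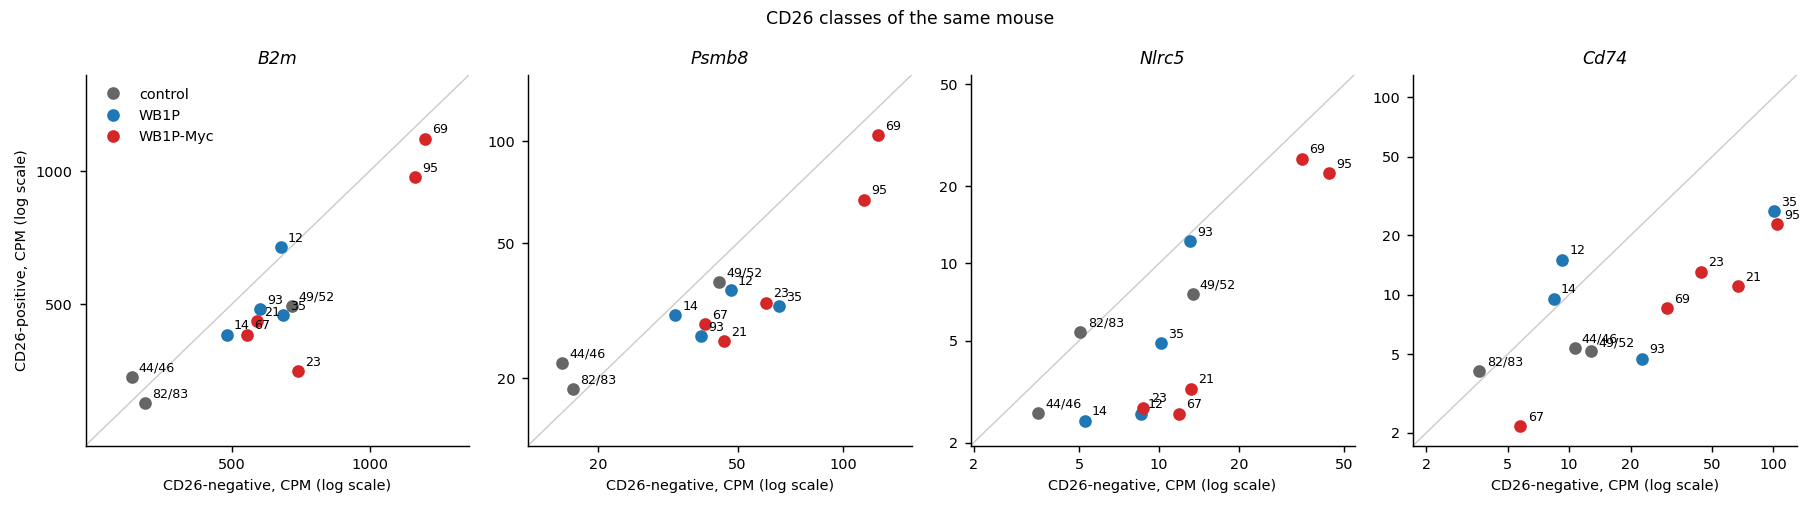
CPM in CD26+ against CD26- fibroblasts of the same mouse, both on log scales, for B2m, Psmb8, Nlrc5 and Cd74, with the line of equal levels and each mouse's number beside its point. Mice 69 and 95 stand at the upper right for B2m, Psmb8 and Nlrc5, and mice 35 and 95 for Cd74, where 9 of 12 mice lie below the line.

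The members fell into 2 blocks across the 25 sums once the group means were subtracted. Each class I gene correlated with the mean of the other class I genes at r from 0.817 (Nlrc5) to 0.97 (Tap2), and Cd74 with H2-Aa at r = 0.992. Between the classes r was 0.195 (Tap1) to 0.392 (Psmb8). These r describe 25 sums that share mice and so carry no p. In the sums H2-Aa counts were 0.430 to 0.828 of Cd74 counts, and H2-D1 counts were 1.88 to 2.94 times those of H2-K1.

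Outside the members, the genes whose log2 CPM was most like the class I mean after subtraction of group means were Gbp2 (r = 0.97), Ifi35 (0.951), Cd274 (0.947), Iigp1 (0.946) and Phf11d (0.939), out of 16601 genes over 25 sums. As they are, Ifi47 (0.924), Ifit3 (0.903), Gbp5 (0.900), Gbp3 (0.897) and Pla2g4c (0.897) came first. For the class II mean they were Plbd1 (0.931), Neurl3 (0.916), H2-Ea (0.911), Pld4 (0.896) and Clec4n (0.885) after subtraction, and H2-Ea (0.931), Plbd1 (0.929), Pld4 (0.917), Clec4n (0.916) and Spi1 (0.910) as they are.

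Class II genes were compared with Ptprc across the CAF mice. In CD26- CAFs Ptprc was at 0.724, 1.00, 1.16, 3.23 and 9.94 CPM in WB1P mice 12, 14, 10, 93 and 35, and at 0.481, 2.24, 4.18, 6.79 and 10.0 CPM in WB1P-Myc mice 67, 23, 21, 69 and 95. Mouse 35 and mouse 95 led both Ptprc and Cd74, and mouse 67 was lowest in both. The CD26- sums of mice 10, 21 and 95 hold 1 library each, and the part of the En1 populations in these relations was not tested. Over these 10 mice Cd74 correlated with Ptprc at r = 0.92 (permutation p 0.00069, adjusted 0.0069 over 20 relations) and rho = 0.93 (p 0.00035, adjusted 0.004), and r was 0.84 without the 2 mice farthest from the median Ptprc. H2-Aa gave r = 0.92 (permutation p 0.00065, adjusted 0.0069) and rho = 0.93 (p 0.0004, adjusted 0.004), with 0.85 without those 2 mice. Within the tumor models r for Cd74 was 0.99 in 5 WB1P mice and 0.85 in 5 WB1P-Myc mice, too few for a test of their own.

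**Figure D4:**
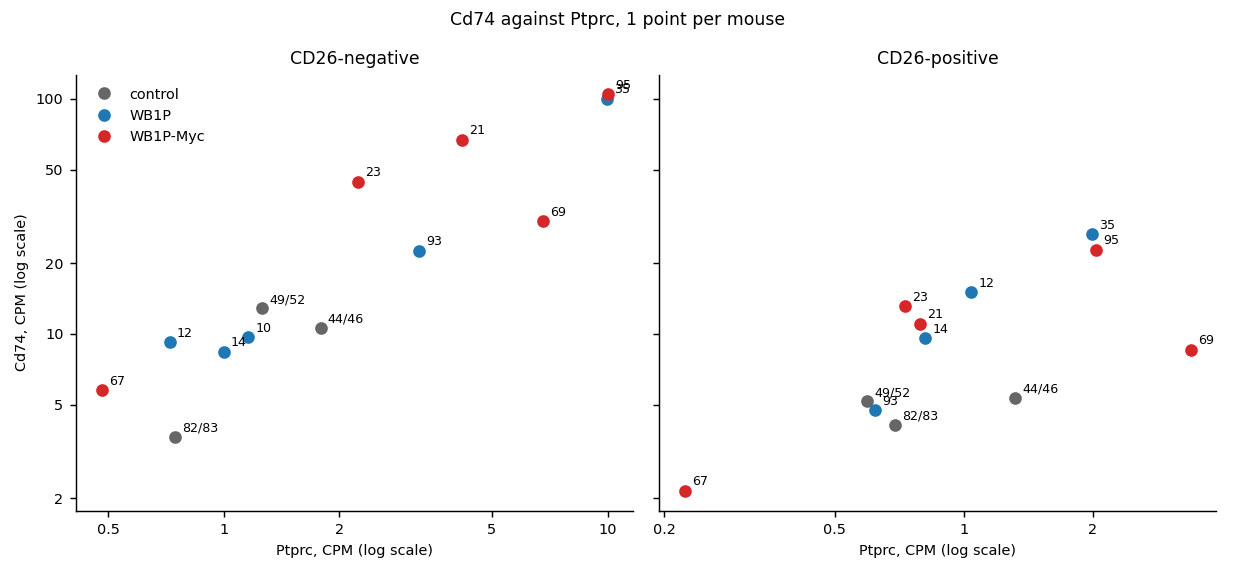
Cd74 against Ptprc in CPM, both on log scales, 1 point per mouse with its number, CD26- fibroblasts on the left and CD26+ on the right, grey for control, blue for WB1P and red for WB1P-Myc. In CD26- fibroblasts the points rise together from mouse 67 (Ptprc 0.481, Cd74 5.77) to mouse 95 (10.0 and 105), and in CD26+ fibroblasts mouse 69 (3.39 and 8.56) lies apart from the others.

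In CD26+ CAFs the relation was looser. Cd74 gave r = 0.64 (exact permutation p 0.0608, adjusted 0.0909) and rho = 0.57 (exact permutation p 0.121, adjusted 0.161) over 9 mice, and H2-Aa r = 0.70 (exact permutation p 0.0344, adjusted 0.0626) and rho = 0.58 (exact permutation p 0.108, adjusted 0.154). Mouse 69 had the highest Ptprc (3.39 CPM) with 8.56 CPM of Cd74, and without it r was 0.93 for both genes. Without mouse 67, which had the lowest Ptprc, r was 0.40 for Cd74 and 0.53 for H2-Aa. Per count of Ptprc there were 4.45 to 19.8 counts of Cd74 in CD26- WB1P-Myc CAFs, 7.01 to 12.7 in CD26- WB1P CAFs and 4.85 to 10.2 in CD26- NFs.

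Class I genes were held against Ptprc in the same family of relations. In CD26- CAFs r lay between 0.37 (Tap1) and 0.66 (Psmb8), and none passed (adjusted permutation p 0.0646 for Psmb8). In CD26+ CAFs r lay between 0.69 (Nlrc5) and 0.83 (H2-D1, exact permutation p 0.0056, adjusted 0.0248), and 7 of the 8 class I genes passed by r. By Spearman's rho only H2-D1 (0.93, adjusted exact permutation p 0.005) and Psmb9 (0.83, adjusted exact permutation p 0.0413) passed. The relations by r rested on mice 69 and 95, the farthest from the median Ptprc. Without these 2 mice r was between -0.02 (Tap2) and 0.49 (H2-D1). Within the 4 WB1P mice r was -0.25 to 0.54 and within the 5 WB1P-Myc mice 0.88 to 0.94.

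Macrophage and other leukocyte genes were read beside the class II genes, and no r between macrophage and class II genes was computed. In CD26- WB1P-Myc CAFs 5 of 6 leukocyte genes and 5 of 8 macrophage genes rose, where 19.1% of all genes rose. Among them on the log2 scale were Csf1r (2.5 ± 0.57, FDR 0.002), the receptor of the macrophage growth factor CSF1, and C1qb (3.35 ± 0.83, FDR 0.00357), a complement component. Csf1r and C1qb also rose in CD26+ WB1P-Myc CAFs (2.74 ± 0.59 and 2.73 ± 0.87), where none of the leukocyte genes passed and the macrophage gene Cd68 fell. Macrophage genes summed to 10.3 to 21.9 CPM in the NFs of that class, 15.3 to 88.4 CPM in CD26- WB1P and 13.3 to 138 CPM in CD26- WB1P-Myc CAFs. Of 4 dendritic cell genes tested, Itgax and Flt3 rose and Zbtb46 fell in CD26- WB1P-Myc CAFs, and Itgax rose in CD26- WB1P CAFs, with median log2 fold changes of 2.97 and 2.10. The summed level of the 5 dendritic cell genes went the other way by the median. It was 24.7 to 61.7 CPM (median 56.7) in CD26- NFs, 16.6 to 32.0 CPM (median 24.5) in CD26- WB1P and 20.7 to 41.0 CPM (median 23.4) in CD26- WB1P-Myc CAFs. The 4 B cell genes summed to 6.16 to 35.0 CPM (median 31.1) in CD26- NFs. They summed to 0.538 to 4.08 CPM in CD26- WB1P and 1.68 to 7.73 CPM in CD26- WB1P-Myc CAFs. In CD26- CAFs Cd79b fell in both models and Cd79a in WB1P. The B cell marker Ms4a1, which had too few counts to be tested, was at 0 to 1.43 CPM in CD26- CAFs. It was at 0 in every CD26+ CAF sum. The part of such cells in the class II values was not tested.

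The wider pathway was read from lists of genes. Of 22 further class I genes, 7 rose in CD26- WB1P-Myc CAFs and 1 fell, against 19.1% of all genes that rose and 36.6% that changed, so that the share of the list is near the background. Their median log2 fold change was 0.48, against 0.02 over all genes. Psmb7, a constitutive proteasome subunit, rose by 0.72 ± 0.17 (FDR 0.00215), and the proteasome activator subunits Psme2 and Psme1 by 0.65 ± 0.16 (FDR 0.00332) and 0.75 ± 0.20 (FDR 0.00701). Fcgrt, the neonatal Fc receptor, fell by 0.76 (SE 0.12, FDR 8.33e-05). In CD26- WB1P CAFs 5 rose and Fcgrt fell, where 35.4% of all genes changed, led by the chaperone Pdia3 (0.64 ± 0.16, FDR 0.00388), Psme2 (0.56 ± 0.16) and Tapbp (0.83 ± 0.25), which bridges class I chains and the transporter.

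In CD26+ CAFs 5 of the 22 genes rose in WB1P and 6 in WB1P-Myc, and Fcgrt fell in both, where 33.5% and 34.7% of all genes changed in either direction. Pdia3 led, with 0.96 ± 0.17 (FDR 0.000289) in WB1P and 0.86 ± 0.16 (FDR 0.000561) in WB1P-Myc, followed by the chaperone Calr and Psmb7 in WB1P and by Psmb7 and Psme2 in WB1P-Myc. None of the 22 passed between WB1P-Myc and WB1P in either class, or between CD26+ and CD26- fibroblasts of any group.

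Of 14 further class II genes, 3 rose and 1 fell in both tumor models in CD26- fibroblasts, near the shares of all genes that changed (35.4% in WB1P and 36.6% in WB1P-Myc). The 3 were the lysosomal proteases Lgmn (1.88 ± 0.18, FDR 2.42e-07, in WB1P-Myc) and Ctss (3.42 ± 0.85, FDR 0.00367) and the class II beta chain H2-Ab1 (2.63 ± 0.81, FDR 0.0148). Ifi30, a lysosomal thiol reductase, fell (-0.65 ± 0.20, FDR 0.0146). In CD26+ fibroblasts 3 of the 14 rose in each model, Lgmn and Ctss in both, with Rfxap in WB1P and H2-Oa in WB1P-Myc. H2-DMa (-1.14 ± 0.26, FDR 0.00309) and Ctss (-1.99 ± 0.65, FDR 0.0327) were lower in CD26+ than in CD26- WB1P-Myc CAFs.

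Among interferon signalling genes upstream of the pathway, the interferon gamma receptor chain Ifngr1 fell in CD26- CAFs of both models (-0.69 ± 0.14 in WB1P and -0.42 ± 0.14 in WB1P-Myc). In CD26+ CAFs the feedback inhibitor Socs1 rose in both (1.61 ± 0.38 and 1.16 ± 0.36), while Irf2 fell in WB1P (-0.52 ± 0.15). Jak1, a kinase at the interferon receptors, was higher in CD26+ than in CD26- CAFs of WB1P (0.62 ± 0.17) and WB1P-Myc (0.70 ± 0.16).

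The En1 lineage was compared in single libraries of the same CD26 class over 15584 genes. None of the 10 genes passed in CD26- CAFs (1.24% of all genes did), CD26+ CAFs (0.00642%), CD26- NFs (0%) or CD26+ NFs (0%), with 0 genes below 0.05 before adjustment and 0 by DESeq2 in each. Log2 differences of En1+ from En1- libraries ran from -0.70 (Cd74) to 0.31 (Tap1) in CD26- CAFs and from -0.03 (Tap1) to 1.19 (Cd74) in CD26+ CAFs. Those of Ptprc were -1.03 ± 0.65 and 0.81 ± 0.70 in the same comparisons. In NFs they ran from -0.81 (Cd74) to 0.20 (H2-D1) in CD26- and from -0.16 (Psmb9) to 0.77 (H2-Aa) in CD26+ libraries.

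Paired by mouse, none of the 10 genes passed in these 4 comparisons either, but some values moved. H2-Aa and Cd74 were at an unadjusted p under 0.05 by edgeR in CD26- CAFs (-0.75 ± 0.27, FDR 0.414, and -0.80 ± 0.30, FDR 0.436) and in CD26- NFs (-1.29 ± 0.48, FDR 0.989, and -1.42 ± 0.51, FDR 0.874), beside Ptprc differences of -1.36 ± 0.39 and -1.30 ± 0.67 on the log2 scale. In CD26- CAFs the highest value was then 0.07 (B2m), and Tap1 was at 0.06. In CD26+ CAFs the paired values ran from -0.23 (Nlrc5) to 0.27 (Cd74), and that of Ptprc was -0.52 ± 0.45, opposite in sign to its unpaired value. In CD26+ NFs they ran from -0.59 (Cd74) to 0.14 (B2m), and H2-Aa (-0.20 ± 0.53) and Cd74 lay below 0, on the other side from their unpaired values.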

How the data were processed

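The authors deposited a table of raw gene counts for 44 mRNA libraries (poly(A) selection, stranded kit). Per the labels, reads were aligned with HISAT2 2.2.1 to GRCm38, as the submitters' processing notes list. The counter and the annotation are not given in the sources used here, nor is the use of strand in counting. Of 55487 rows, 1 named no gene and held 0 counts. The members and gene lists were chosen with earlier results of these data known.

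Counts of the libraries of a mouse and CD26 class were added up (25 sums). Genes were kept with filterByExpr (16601 genes), scaled with TMM and tested with edgeR 4.0.16 (glmQLFit and glmQLFTest, limma 3.58.1, R 4.3.3) on 6 groups of treatment and CD26 class, with Benjamini-Hochberg FDR under 0.05 as the threshold. The En1 comparisons used the single libraries (15584 genes). Several libraries of a mouse are not independent samples. Fold changes are log2 with their SE. CPM are counts scaled by the total of a library or sum. Library depth was 5790599 to 15240328 counts. Permutation tests of correlations used log2(CPM + 0.5), 2-sided, with 100000 permutations, or every pairing for 9 mice. Benjamini-Hochberg adjustment was made within each family of relations.

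Both CD26 classes came from the same mouse. In 12 of 12 pairs the deviations from the group means correlated (r 0.237 to 0.668, median 0.444), so CD26 comparisons were repeated with the mouse as a block. Comparisons between treatments have no pairs. Members were described in every comparison. Of the lists, the counts were given with up to 3 genes of smallest FDR in each direction, and likeness was given for the 5 genes of highest r. A list of signalling genes is given without its counts, since a result in it is not reported here. C1qb, Csf1r and Cd68 were chosen after their values were seen.

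Alternatives were DESeq2 1.42.0 (Wald test, and its size factors alone), no filter, each mouse left out, the mice marked 8x8 left out, Ptprc as a covariate, single libraries and only the groups compared. Counts were simulated for WB1P-Myc against control in CD26- fibroblasts (16162 genes). Of 100 genes changed by 1 on the log2 scale 49 were recovered, and of 100 changed by 2, 84, with 1 false call. A far larger share of genes was called in the data (36.6%), so the shares recovered need not hold there.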

Additional observations from a re-analysis of the deposited data

Results flagged for a closer look

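Among 40 groups of 4 or 5 mice, 1 for each member, CAF model and CD26 class, 3 held a mouse far from the others by Dixon's ratio, the gap to the nearest mouse over the whole range. Chance alone sets apart about 1 group in 20. Mouse 35 was highest for Cd74 (ratio 0.845) and H2-Aa (ratio 0.841) in CD26- WB1P CAFs, with 100.2 CPM of Cd74 and 48.8 CPM of H2-Aa, beside 9.94 CPM of Ptprc, the highest of the 5 mice. Mouse 12 was highest for Tap2 in CD26+ WB1P CAFs (ratio 0.940), with 67.7 CPM against 61.6 to 61.9 CPM in the other 3 mice.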

How the results depend on the processing

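The number of the 10 genes past the threshold moved as follows, and the cause was not tested. In CD26- WB1P CAFs against NFs, 0 genes became 2 by DESeq2, 1 without the 8x8 mice, 1 without the 3 mice over 5 CPM of Ptprc, 4 in single libraries, and 0 to 1 with a mouse left out. In CD26- WB1P-Myc CAFs, 4 genes became 1 without the 8x8 mice, 0 with Ptprc as a covariate, 10 in single libraries, 2 without the 3 mice, and 0 to 6 with a mouse left out. In CD26+ WB1P CAFs, 0 became 1 with the covariate, 1 with only the 2 groups compared and 3 in single libraries. In CD26+ WB1P-Myc CAFs, 0 became 1 by DESeq2, 1 with the covariate, 8 in single libraries and 0 to 2 with a mouse left out. Single libraries count several libraries of a mouse as separate samples.

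Between CD26+ and CD26- fibroblasts, the replicate block by mouse took WB1P from 0 to 1 and WB1P-Myc from 0 to 5 (4 without the 3 mice), and it changed no other call. In WB1P-Myc, DESeq2 gave 1, and 0 to 2 with a mouse left out. Leaving out the 3 mice, with and without the block, and the 8x8 mice in the WB1P comparisons were alternatives chosen after seeing the data. All other comparisons stayed at 0 under each alternative run.

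In CD26+ CAFs, the r of Cd74 with Ptprc was 0.80 with the leukocyte list in place of Ptprc (exact permutation p 0.00922), 0.96 without the 8x8 mice (exact permutation p 0.000794) and 0.40 to 0.93 with a mouse left out. That of H2-Aa was 0.58 as Spearman's rho (exact permutation p 0.108) and 0.53 to 0.93 with a mouse left out. In CD26- CAFs, r stayed at 0.90 to 0.95 for Cd74 and 0.90 to 0.96 for H2-Aa with a mouse left out.

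The sign turned for Nlrc5 in CD26+ fibroblasts, where log2 values in WB1P ran from -0.53 (without mouse 93) to 0.75 with a mouse left out, and it turned to -0.73 in WB1P-Myc without the 3 mice. With Ptprc as a covariate, CD26+ against CD26- WB1P-Myc CAFs gave 0.11 for H2-K1, 0.29 for H2-D1, 0.13 for B2m, 0.23 for Tap1, 0.09 for Tap2, 0.04 for Psmb8 and 0.09 for Psmb9. Of the 3 control mice, 1 (49/52) was high in class I genes. Changes of 1 on the log2 scale were often missed in simulation. The simulated controls held no such mouse, so its part in the missed calls was not tested.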

Other observations

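Other H2 genes set some mice apart. H2-T23, a class I-like gene, was at 14.2 to 57.9 CPM in CD26- NFs, at 46.5 CPM in WB1P mouse 93 and 29.4 CPM in WB1P-Myc mouse 67, and at 6.48 to 14.3 CPM in the other CD26- CAFs. H2-T22 was at 14.5 to 18.2 CPM in CD26- NFs, at 25 and 22.5 CPM in the same 2 mice and at 4.77 to 13.7 CPM in the others. In CD26+ fibroblasts mice 93 and 67 again held the most H2-T23 of their groups (35.5 and 21.8 CPM). Counts of H2-Eb1 per count of H2-Ab1 were 0.717 to 1.15 in CD26- NFs, 0.0516 to 0.454 in CD26- WB1P CAFs and 0.0805 to 0.481 in CD26- WB1P-Myc CAFs. The H2 alleles of these mice are not given in the sources used here, and their part in these values was not tested.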
